A study of Mus musculus with 6 samples.

Results

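Amino acid transporter genes of 6 solute carrier families were examined in mouse aortic smooth muscle cells with and without trimethylamine N-oxide (TMAO). The genes were taken by symbol: every listed gene of the families Slc1a, Slc3a, Slc7a, Slc36a, Slc38a and Slc43a, without Slc7a11 and Slc38a2. This gave 35 of the 25939 listed genes, spread over 17 chromosomes. Of these, 20 had at least 1 FPKM in at least 3 libraries and were tested, and 15 were below that filter. FPKM is the number of fragments per kilobase of exon scaled to library size, so it is a level per length. The lengths that gave whole reads joined all annotated exons of a gene. A gene with many or long alternative exons can thus read lower, and levels of different genes compare only roughly. Slc38a9, with 203 to 275 reads per library over 16704 exon bases, was below the filter. Slc7a13, with 51 to 94 reads over 2141 bases, was tested. The tested genes among these families hold glutamine, leucine and arginine carriers, whereas most of the glutamate carriers and several kidney and brain transporters lay near 0. The family Slc43a includes Slc43a3, which is known as a purine nucleobase transporter, so the symbols do not in every case name an amino acid carrier.

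Cells take up amino acids through carriers with overlapping substrates. Sodium-coupled carriers of the Slc1 and Slc38 families load the cell with small neutral amino acids such as glutamine. Exchangers of the Slc7 family then trade these for large neutral or cationic amino acids. Most of those exchangers work only when bound to a glycoprotein heavy chain of the Slc3 family, which takes the light chain to the cell surface. Carriers in the lysosome membrane return amino acids from degraded protein to the cytosol, where leucine and arginine are sensed by the pathway to the kinase complex mTORC1. In the artery wall, cationic amino acid carriers supply arginine for nitric oxide and polyamine synthesis.

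Smooth muscle cells were isolated from mouse aorta, cultured, and given control treatment or TMAO for 48 h, with 3 libraries in each group. TMAO is made in the liver from trimethylamine that gut bacteria release from dietary choline and carnitine, and it is also an osmolyte. No genotype, strain, age, sex, TMAO dose or number of mice is given in the sources used here, and the origin of the replicates is not given either. The p-values therefore measure only how far these libraries spread, which may be technical. The comparison asks what TMAO does to gene expression in these cells.

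The reads implied by the FPKM values came to between 14991252 and 16806728 per library, and 1 read in 1 kb of exon was worth 0.0595 to 0.0667 FPKM. The cultures held high smooth muscle actin (Acta2, 487 ± 2.79 FPKM in Control and 483 ± 8.68 FPKM in TMAO, SD, n = 3). The contractile markers Tagln, Cnn1 and Myh11 each had a mean below 1 FPKM, so 5 of 8 smooth muscle markers reached 1 FPKM. Of 7 fibroblast and adventitial markers, 6 had a mean of at least 1 FPKM. The 7 summed to 454 to 495 FPKM in Control and 454 to 487 FPKM in TMAO. Most of that sum was 1 gene, Ly6a, with a mean of 412 FPKM over all libraries. Macrophage markers summed to 78.9 to 97.7 FPKM in Control and 76.1 to 83.9 FPKM in TMAO, most of it Lyz2. Of these 7 markers, 3 had a mean of at least 1 FPKM (Lyz2, Cd68 and Cd14), and Ptprc, Csf1r, Adgre1 and Itgam were each below it. Endothelial markers summed to 15.5 to 16.8 and 12.5 to 13.1 FPKM, most of it Emcn, with Pecam1, Cdh5, Kdr, Tek and Vwf below 1 FPKM. Epithelial and mesothelial markers summed to 7.51 to 9.05 and 7.40 to 8.16 FPKM, and adipocyte markers to 12.5 to 13.7 and 13.1 to 13.7 FPKM, most of the latter Fabp4. None of the listed markers was at 0 in all libraries. The part of other cell types in the transporter levels was not tested. In whole cultures, fewer cells of a type cannot be told apart from less RNA per cell. The library TMAO 1 had reads in 20844 genes, the most of the 6, and mitochondrial genes took 6.47% of its reads against 6.76% and 6.75% in TMAO 2 and 3 and 7.39% to 7.96% in Control. Malat1, a long RNA kept in the nucleus and picked with its values in view, had 218, 153 and 183 FPKM in TMAO 1 to 3 against 75.0 to 113 FPKM in Control (limma adjusted p = 0.196).

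Of the 20 transporter genes tested, 1 passed the threshold, and that call was lost in 10 of the 15 alternatives that tested the gene, among them leaving out any 1 of the 6 libraries. Slc7a13, which codes for an exchanger of aspartate, glutamate and cystine known mainly from the kidney tubule, fell by 39.7% in mean level. The leucine transporter gene Slc7a5 stood lower by 12.3% and the putative neutral amino acid transporter gene Slc38a6 higher by 34.8%, each without overlap between groups and neither past the threshold. The glutamine transporter gene Slc1a5 had a mean 18.9% higher, with overlap. The heavy chain gene Slc3a2 and the abundant Slc43a3 had group means within 2.17% of each other.

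In limma, over all 11062 tested genes, an adjusted p below 0.05 was reached by 20 genes (0.181%), 8 of them higher (0.0723%) and 12 lower (0.108%). With quantile normalization the split was 7 higher and 18 lower, and with trends in GC content and exon length removed it was 10 and 32. The balance turned with a filter of 0.1 FPKM, at 12 higher and 7 lower, and when a library other than TMAO 3 was left out. Without Control 1, 2 or 3 it was 14 and 8, 12 and 8, and 8 and 3. Without TMAO 1 or 2 it was 8 and 4, and 42 and 14, and without TMAO 3 it was 5 and 9. Of the 20 transporter genes tested, 0 were higher and 1 was lower. An unadjusted limma p below 0.05 was found for 4 of the 20, or 20%, against 13.1% of all tested genes. For 1 transporter gene, Slc38a6, every TMAO library exceeded every Control library, against 12.4% of all tested genes. The reverse held for 2, Slc7a13 and Slc7a5, against 6.23%. Together 15% of the transporter genes had groups that did not overlap, against 18.7% of all tested genes, so this share is no higher than the background. The log2 fold change, TMAO minus Control on the scale of log2(FPKM + 1), had a median of 0.03 over the transporter genes and 0.02 over all tested genes. Without TMAO 1 these medians were -0.018 and 0.012, and with median-ratio size factors -0.007 and -0.009. The log2 fold change was above 0 for 15 of 20 transporter genes and for 60.0% of all tested genes. That count of transporter genes was 11 with quantile normalization or with GC and length trends removed, 9 with median-ratio size factors and 8 without TMAO 1. The median over all tested genes was -0.003 with quantile normalization and -0.002 with the trends removed, so all genes moved as well. The median size of the log2 fold change without sign was 0.08 for the transporter genes and 0.07 for all tested genes. On this scale the change of a low gene is understated.

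**Figure D1:**
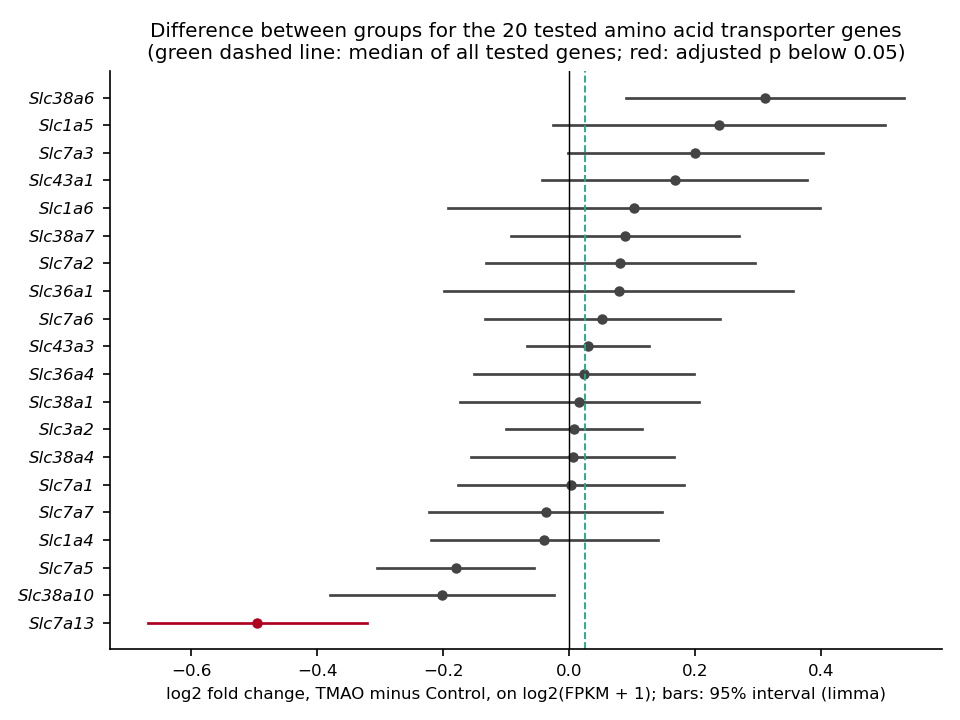
Difference between groups for the 20 tested transporter genes: the x axis is the log2 fold change (TMAO minus Control) on log2(FPKM + 1), points are limma estimates and bars their 95% intervals, with 3 libraries per group. Slc7a13, in red, is the only gene past an adjusted p of 0.05; the intervals of 16 of the 20 genes include 0, and the green dashed line is the median of all tested genes, 0.02.

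Levels spanned a wide range. Slc43a3 had 73.5, 71.3 and 71.2 FPKM in Control 1 to 3 and 76.7, 72.1 and 71.9 FPKM in TMAO 1 to 3. It was the highest of the 35 in every library and ranked 810 among all listed genes by mean level. Slc3a2 came next, at 34.8, 37.2 and 37.3 FPKM in Control and 37.7, 35.6 and 36.5 FPKM in TMAO. Slc1a5 and Slc7a5 followed, and these 4 genes together held 70.2% to 71.9% of the summed FPKM of all 35. Slc1a5 was above Slc7a5 in every library. Then came Slc38a10, at a mean of 9.75 FPKM over all libraries, and 7 genes between 4.08 and 6.11 FPKM (Slc1a4, Slc7a6, Slc7a2, Slc36a1, Slc38a7, Slc36a4 and Slc38a4), whose neighbours in the order overlapped between libraries. The other 8 tested genes had means from 1.11 to 2.88 FPKM. The summed level of the 35 genes was 211 ± 5.62 FPKM in Control and 215 ± 11.98 FPKM in TMAO (SD, n = 3), and without Slc43a3 it was 139 ± 6.69 and 142 ± 9.32 FPKM. The groups overlapped in both sums.

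**Figure D2:**
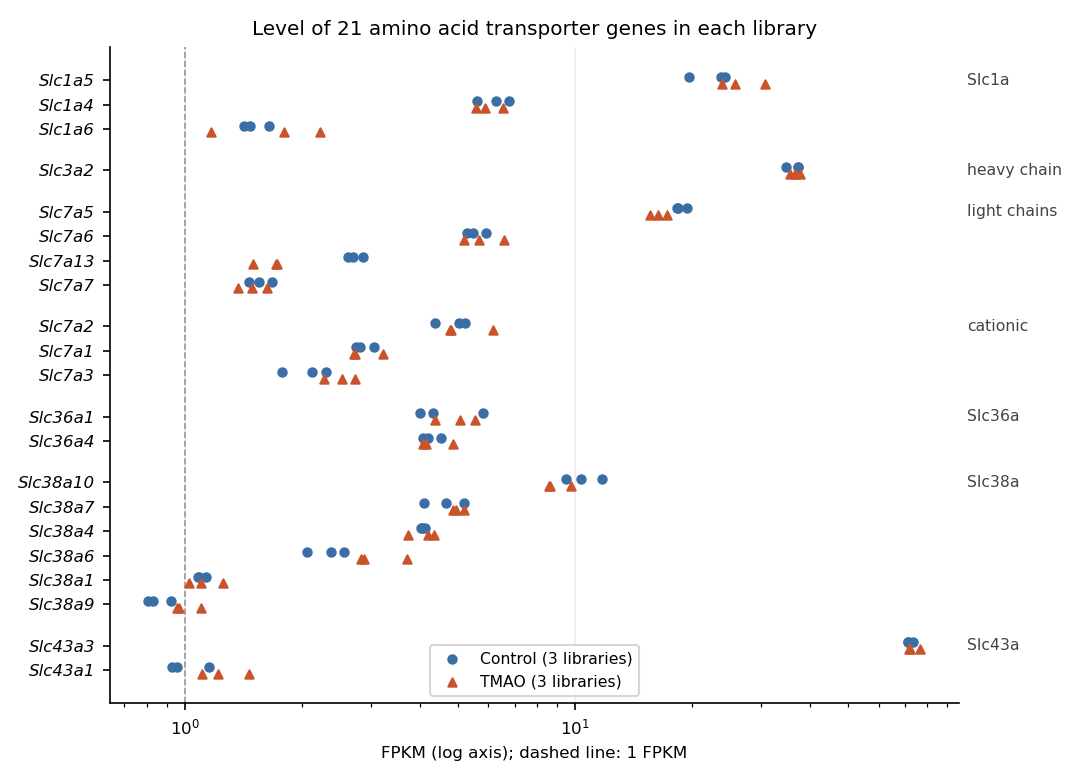
Level of 21 transporter genes in each library: the x axis is FPKM on a log scale, circles are the 3 Control libraries and triangles the 3 TMAO libraries, grouped by family or role; the dashed line marks 1 FPKM. Slc43a3 lies above 71 FPKM in all 6 libraries, and only for Slc7a13, Slc7a5, Slc38a6 and the untested Slc38a9 do circles and triangles separate fully.

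The Slc1 family holds the exchangers of small neutral amino acids and the high-affinity glutamate carriers. Slc1a5 (ENSMUSG00000001918, chromosome 7, 16781340 to 16798274, plus strand of mm10) codes for ASCT2, which brings glutamine into the cell. It had 19.6, 24.3 and 23.7 FPKM in Control 1 to 3 and 30.7, 23.8 and 25.8 FPKM in TMAO 1 to 3. TMAO 1 was the highest and Control 1 the lowest library, and TMAO 2 lay below Control 2. The group means were 22.5 ± 2.53 and 26.8 ± 3.58 FPKM (SD, n = 3), with a log2 fold change of 0.24 ± 0.112 (SE, 95% interval -0.03 to 0.50, limma adjusted p = 0.428). Leaving out TMAO 1 gave 0.14 (limma adjusted p = 0.639) and leaving out Control 1 gave 0.15 (0.669). Slc1a4, which codes for ASCT1, a carrier of alanine, serine, cysteine and threonine, had means of 6.21 and 6.01 FPKM and a log2 fold change of -0.04. Slc1a6, a glutamate carrier gene known from cerebellar neurons, had 1.42 to 1.64 FPKM in Control and 1.17 to 2.22 FPKM in TMAO, with 40 to 79 reads per library. The other glutamate carrier genes were near 0. Slc1a2, the main glial carrier gene, ranged from 0.0455 to 0.0964 FPKM, and Slc1a1 and Slc1a7 had at most 2 reads in any library. Slc1a3, the second glial carrier gene, had 4, 7 and 7 reads in Control 1 to 3 and 1, 0 and 2 reads in TMAO 1 to 3. These counts did not overlap between groups, but they are too low for the filter and were not tested.

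Heavy chains anchor the exchangers. Slc3a2 (ENSMUSG00000010095, chromosome 19, 8706882 to 8723369, minus strand) codes for the CD98 heavy chain, the partner of most Slc7 light chains. Its means were 36.5 ± 1.45 and 36.6 ± 1.07 FPKM (SD, n = 3), with a log2 fold change of 0.01 ± 0.049 (SE, 95% interval -0.10 to 0.11, limma adjusted p = 0.969). Slc3a1 codes for rBAT, the heavy chain of the kidney and intestine. It had 1, 2 and 0 reads in Control 1 to 3 and 5, 2 and 2 reads in TMAO 1 to 3. Exons of Prepl on the opposite strand cover 26.5% of its exon bases, and the strand setting of the counting is not given in the sources used here.

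Of the light chain genes, 4 were tested, 3 had a log2 fold change below 0, and 1 of these passed the threshold. Slc7a13 (ENSMUSG00000041052, chromosome 4, 19818725 to 19842218, plus strand) had 2.86, 2.70 and 2.61 FPKM in Control 1 to 3 and 1.72, 1.49 and 1.71 FPKM in TMAO 1 to 3. The lowest Control library lay well above the highest TMAO library. These values rest on 92, 87 and 94 reads in Control and 61, 51 and 55 reads in TMAO. The means were 2.72 ± 0.127 and 1.64 ± 0.130 FPKM (SD, n = 3), with a log2 fold change of -0.49 ± 0.079 (SE, 95% interval -0.67 to -0.32, limma adjusted p = 0.0441). With the reads themselves tested by voom it was -0.72 ± 0.169 (limma adjusted p = 0.0465). The call was lost when any 1 of the 6 libraries was left out, with limma adjusted p-values from 0.0566 to 0.12, and in 4 other settings. The log2 fold change was between -0.72 and -0.45 in all 15 alternatives that tested the gene. These are not all on one scale: -0.72 is from voom, and adding 0.1 in place of 1 to the FPKM gave -0.70. The other settings, on log2(FPKM + 1), gave -0.55 to -0.45. No other annotated gene overlaps the exons of Slc7a13, and 0.48% of the 50-base words of its transcripts occur in transcripts of another gene. Slc7a13 is known to pair with rBAT in the kidney, and the rBAT gene Slc3a1 had at most 5 reads in any library here.

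**Figure D3:**
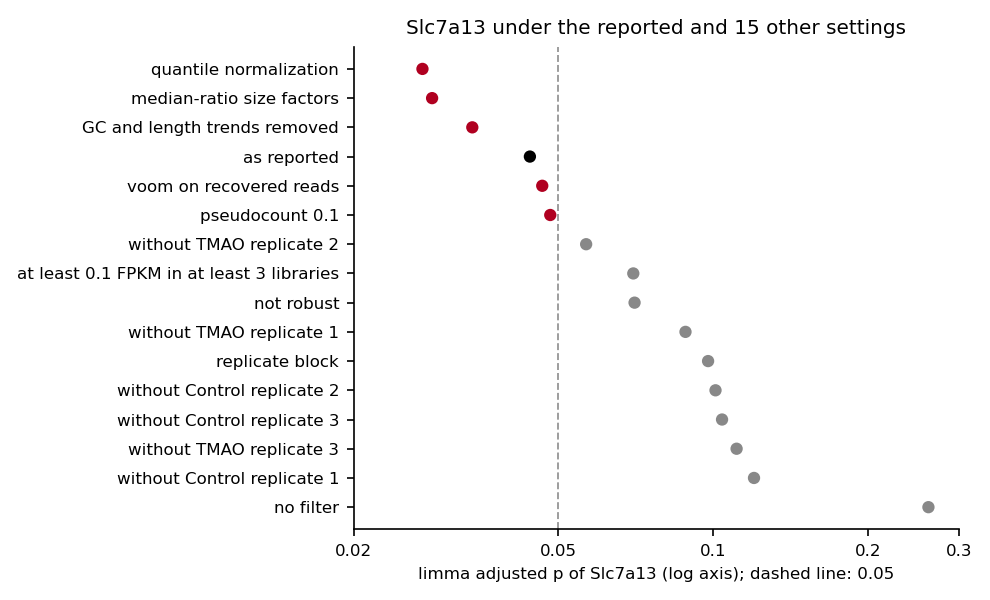
Adjusted p of Slc7a13 as reported (black) and under 15 other settings (red below 0.05, grey above): the x axis is the limma adjusted p on a log scale and the dashed line is 0.05. The values run from 0.0272 with quantile normalization to 0.262 with no filter, and all 6 settings that leave out 1 library are above 0.05.

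Slc7a5 (ENSMUSG00000040010, chromosome 8, 121881150 to 121907694, minus strand) codes for LAT1, the carrier of leucine and other large neutral amino acids. It had 18.3, 19.4 and 18.3 FPKM in Control 1 to 3 and 16.3, 17.3 and 15.5 FPKM in TMAO 1 to 3. All TMAO libraries lay below all Control libraries, by a gap of about the size of the spread within Control. The means were 18.7 ± 0.620 and 16.4 ± 0.869 FPKM (SD, n = 3), with a log2 fold change of -0.18 ± 0.056 (SE, 95% interval -0.30 to -0.06, limma adjusted p = 0.221), and it did not pass in any of the 16 alternatives. Slc7a6 and Slc7a7 code for exchangers that release cationic amino acids in return for neutral ones and sodium. Slc7a6 had means of 5.55 and 5.81 FPKM (log2 fold change 0.05) and Slc7a7 of 1.56 and 1.49 FPKM (-0.04), with overlap in both. Slc7a8, the gene of the related carrier LAT2, had 3 to 14 reads per library. Slc7a15 had 2 reads in Control 2 and 0 in the other libraries, where a count of 0 allows up to 3 reads, or 0.0669 FPKM. Slc7a9, Slc7a10 and Slc7a12 were not analysed here.

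Cationic amino acid transporters bring in arginine, lysine and ornithine. Slc7a2, whose product CAT2 is induced in activated cells, had means of 4.89 and 5.25 FPKM (log2 fold change 0.08), with TMAO 1 the highest library at 6.16 FPKM. Slc7a1, which codes for the widely expressed CAT1, had 2.75 to 3.05 FPKM in Control and 2.71 to 3.21 FPKM in TMAO (log2 fold change 0.00, 95% interval -0.18 to 0.18). Slc7a3, which codes for CAT3, had 2.11, 1.77 and 2.30 FPKM in Control 1 to 3 and 2.53, 2.73 and 2.27 FPKM in TMAO 1 to 3. Its groups overlapped only through Control 3 and TMAO 3, and its log2 fold change of 0.20 ± 0.091 (SE) did not pass (limma adjusted p = 0.382) and was 0.131 without Control 2. Slc7a4 and Slc7a14, relatives with less defined substrates, had 4 to 16 and 0 to 3 reads per library.

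Among the sodium-coupled neutral transporters, 5 genes were tested and 0 passed. Slc38a6 (ENSMUSG00000044712, chromosome 12, 73286779 to 73354049, plus strand) had 2.05, 2.36 and 2.56 FPKM in Control 1 to 3 and 3.70, 2.83 and 2.88 FPKM in TMAO 1 to 3. TMAO 1 stood apart from the other two TMAO libraries, which were still above all Control libraries. The means were 2.33 ± 0.256 and 3.14 ± 0.490 FPKM (SD, n = 3), with a log2 fold change of 0.31 ± 0.0996 (SE, 95% interval 0.09 to 0.53, limma adjusted p = 0.229), and 0.22 without TMAO 1 (limma adjusted p = 0.418). Of the 50-base words of its transcripts 22.8% also occur in transcripts of other genes, so its level is uncertain. Slc38a10 (ENSMUSG00000061306, chromosome 11, 120103960 to 120151346, minus strand) had 9.48, 11.7 and 10.4 FPKM in Control 1 to 3 and 9.77, 8.64 and 8.57 FPKM in TMAO 1 to 3. Only TMAO 1 reached into the Control range. Its log2 fold change was -0.20 ± 0.081 (SE, 95% interval -0.38 to -0.02, limma adjusted p = 0.323), and -0.13 without Control 2 (limma adjusted p = 0.567). Exons on the opposite strand cover 5.72% of its exon bases. Slc38a4, an imprinted gene for a carrier of neutral amino acids, had means of 4.07 and 4.10 FPKM, and Slc38a1, a glutamine carrier gene, of 1.10 and 1.13 FPKM.

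Slc38a7 and Slc38a9 belong to the lysosome. Slc38a7, the gene of a lysosomal glutamine and asparagine exporter, had means of 4.66 and 4.999 FPKM (log2 fold change 0.09), with 0.014 without Control 1 and 0.156 without Control 2. Slc38a9, whose product senses lysosomal arginine for mTORC1, had 0.921, 0.807 and 0.830 FPKM in Control 1 to 3 and 0.956, 0.964 and 1.10 FPKM in TMAO 1 to 3. The groups did not overlap, but the gene was below the filter. With a filter of 0.1 FPKM in 3 libraries its log2 fold change was 0.12 ± 0.075 (SE, limma adjusted p = 0.61). Slc38a3 had 0 to 5 reads per library. Slc38a5 and Slc38a11 had 1 and 2 reads in TMAO 1 and 0 elsewhere, and Slc38a8 was not analysed here.

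Transporters of the Slc36 family export neutral amino acids from lysosomes and endosomes or take them up at the surface. Slc36a1, which codes for the lysosomal PAT1, had 4.001 to 5.82 FPKM in Control and 4.37 to 5.55 FPKM in TMAO, with log2 fold change 0.08. Slc36a4, a carrier gene for proline and tryptophan, had means of 4.27 and 4.37 FPKM (0.02). Slc36a3 had 1 read in TMAO 1 and 0 elsewhere, and Slc36a2 was not analysed here. In the Slc43 family, Slc43a3 (ENSMUSG00000027074, chromosome 2, 84936579 to 84958509, plus strand) had means of 72.0 ± 1.28 and 73.6 ± 2.69 FPKM (SD, n = 3) and a log2 fold change of 0.03 ± 0.044 (SE, 95% interval -0.07 to 0.13, limma adjusted p = 0.823). Slc43a1, the gene of the leucine carrier LAT3, had 0.955, 0.929 and 1.16 FPKM in Control and 1.46, 1.22 and 1.11 FPKM in TMAO. Its difference of 0.17 on the log2 scale had a limma adjusted p of 0.498, and it was 0.105 without TMAO 1. Slc43a2, the gene of LAT4, had 0.0463 to 0.101 FPKM in Control and 0.0749 to 0.114 FPKM in TMAO.

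**Figure D4:**
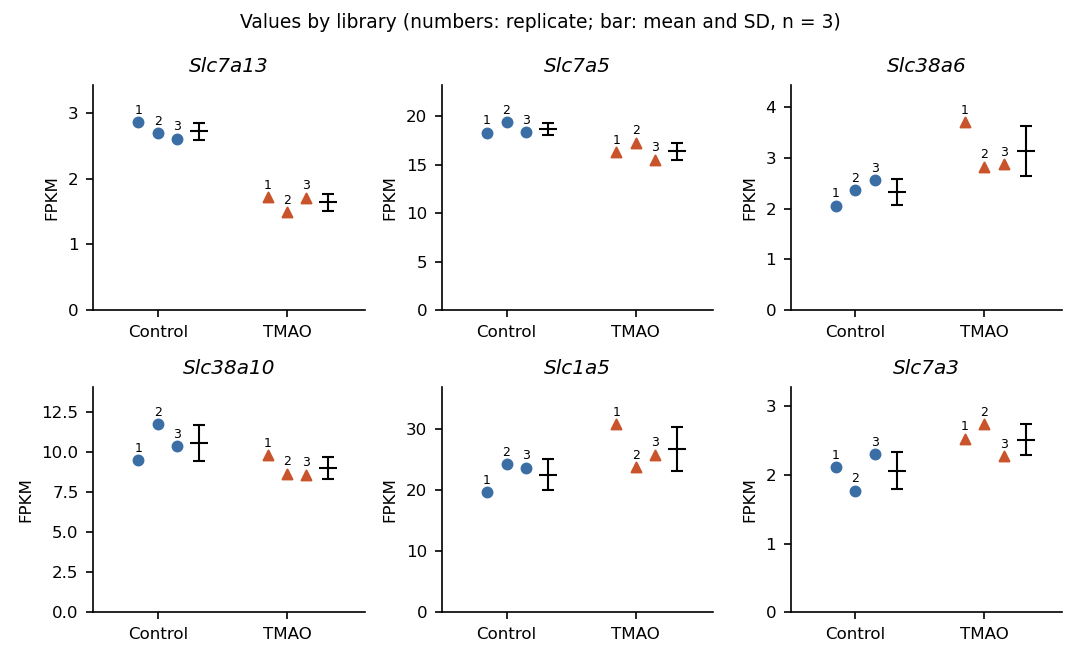
FPKM of 6 transporter genes in each library: the y axes start at 0, points carry the replicate number, and the black bar is the mean with its SD (n = 3 per group). The groups separate for Slc7a13, Slc7a5 and Slc38a6 and overlap for Slc38a10, Slc1a5 and Slc7a3; TMAO 1 is the highest library for Slc38a6 (3.70 FPKM) and Slc1a5 (30.7 FPKM).

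Several of these genes are neighbours whose levels differed. On chromosome 2, Slc43a1 and Slc43a3 lie 73.0 kb apart on the same strand, at means of 1.14 and 72.8 FPKM over all libraries. Slc36a3 and Slc36a1 lie 52.6 kb apart on chromosome 11, on opposite strands, at 0.00428 and 4.86 FPKM. Slc7a7 and Slc7a8 lie 304.4 kb apart on chromosome 14, at 1.53 and 0.0835 FPKM. Slc38a1 and Slc38a4 lie 351.9 kb apart on chromosome 15, at 1.11 and 4.08 FPKM. These are the 4 pairs with less than 1000000 bases between them. No listed transporter gene shares exon bases with another gene on its own strand, and 17 of the 20 tested share none on either strand.

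Amino acid shortage is known to raise transporter genes through the transcription factor ATF4, which binds the amino acid response element, so promoters were searched for its core. RefSeq promoters (GRCm38.p6, the same assembly as mm10, 250 bases before to 50 after a start site) were given for 26 of the 35 genes, among them 13 tested ones, with 36 start sites. The table had no entry for Slc7a13, Slc7a5, Slc1a5, Slc43a3, Slc7a2, Slc7a3, Slc38a1, Slc7a4 and Slc38a3. The core TGATGNAA, on either strand, was in 3 of the 36 transporter promoters, 1 of Slc1a4 and 2 of Slc7a7, and in 3.97% of all promoters. The cAMP response element TGACGTCA was in 1 of the 36, that of Slc38a6, and in 1.79% of all promoters. The E-box CACGTG was in 7 of the 36 and in 7.15% of all promoters, the GC box GGGCGG in 25 and in 35.7%, and TATAAA in 6 and in 13.6%. Each motif was searched on both strands and on its own, so matches to different motifs may overlap. The first 2 sequences below are shown because they hold the ATF4 core (another Slc7a7 promoter overlaps the one shown and holds its second match), and the third because Slc38a6 is the tested gene whose TMAO libraries were all above Control. Each is written from 5′ to 3′ on the strand of the gene with the match in capitals, from 250 bases before the start site, and trimmed to 260, 260 and 180 bases. They lie at chr11:20332704-20332963 (minus strand), chr14:54417935-54418194 (minus strand) and chr12:73286598-73286777 (plus strand).
Slc1a4: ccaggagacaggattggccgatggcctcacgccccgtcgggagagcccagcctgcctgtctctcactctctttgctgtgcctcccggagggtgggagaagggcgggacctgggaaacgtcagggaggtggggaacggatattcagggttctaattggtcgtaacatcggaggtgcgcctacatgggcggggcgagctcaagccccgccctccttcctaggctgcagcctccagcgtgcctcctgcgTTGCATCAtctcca
Slc7a7: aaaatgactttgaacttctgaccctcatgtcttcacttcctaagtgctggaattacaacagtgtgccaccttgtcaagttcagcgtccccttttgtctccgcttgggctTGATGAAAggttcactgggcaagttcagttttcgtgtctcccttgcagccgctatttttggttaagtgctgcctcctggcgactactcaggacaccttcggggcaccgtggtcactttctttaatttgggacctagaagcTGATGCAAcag
Slc38a6: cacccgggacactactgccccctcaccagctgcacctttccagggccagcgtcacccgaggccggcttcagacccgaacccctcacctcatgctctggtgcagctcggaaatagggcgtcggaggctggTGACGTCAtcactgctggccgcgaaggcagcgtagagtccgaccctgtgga
The log2 fold changes of Slc1a4 and Slc7a7, -0.04 and -0.04, had 95% intervals of -0.22 to 0.14 and -0.22 to 0.15. A match in letters is not a measured binding site, and none of these 3 genes passed the test.

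Other genes of amino acid supply were read from 5 lists, and 0 of their 87 tested genes passed in limma, against 0.181% of all tested genes. An unadjusted p below 0.05 was found for 17 of the 87, against 13.1% of all tested genes. The number among the 87 was 7 without Control 1, 8 without TMAO 3, 11 without Control 3 and 19 without TMAO 2. Over all 11062 tested genes it was 1189, 1056, 1213 and 1516 in the same fits, and 1448 as reported. With median-ratio size factors it was 10 of the 87 and 1408 of 11054 genes. Among transporters of other families, 8 of 17 listed genes were tested, 4 with a log2 fold change above 0 and 4 below, and the median was 0.01, with -0.033 to -0.018 under the 3 other scalings. The lysosomal cystine exporter gene Ctns had 10.8, 10.1 and 10.7 FPKM in Control and 12.5, 11.9 and 13.3 FPKM in TMAO (0.23 ± 0.061, limma adjusted p = 0.164). All TMAO libraries were above Control for this gene. The taurine transporter gene Slc6a6 and the glycine transporter gene Slc6a9 had -0.12 and 0.14 (limma adjusted p = 0.581 and 0.622). Slc6a6 had -0.188 without TMAO 1, -0.061 without TMAO 2 and -0.070 without Control 2, and Slc6a9 had 0.045 without Control 1. All 10 tested mitochondrial amino acid carrier genes had a log2 fold change above 0, with a median of 0.06, against 8 or 9 of them under the 3 other scalings, with medians from 0.016 to 0.034. Of all tested genes 60.0% were above 0, with a median of 0.02. An unadjusted limma p below 0.05 was found for 1 of the 10. The sideroflexin genes Sfxn2 and Sfxn3 and the basic amino acid carrier gene Slc25a29 had 0.21, 0.09 and 0.15 (limma adjusted p = 0.367, 0.631 and 0.636). Sfxn2 had 0.139 without TMAO 3. Sfxn3 had 0.016 without TMAO 1 and 0.134 without TMAO 2, and Slc25a29 had 0.067 and 0.268 without the same libraries.

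In the list of amino acid sensing and mTORC1, 22 of 29 tested genes were above 0, with a median of 0.08. All TMAO libraries were above Control for 8 of the 29 and below for 1, Nprl2 (named after its values were seen), against 12.4% and 6.23% of all tested genes. The arginine sensor gene Castor1 had 10.3, 10.2 and 11.3 FPKM in Control and 11.4, 13.0 and 13.3 FPKM in TMAO (0.22 ± 0.070, limma adjusted p = 0.221). Fnip1 and Flcn, which code for partners that switch the lysosomal Rag GTPases, had 0.19 and 0.17 (limma adjusted p = 0.245 and 0.296). Of 20 tested genes of non-essential amino acid synthesis, 14 were above 0, with a median of 0.08. All TMAO libraries were above Control for 8 of the 20 and below for 0, beside the same 12.4% and 6.23%. The aspartate aminotransferase gene Got1 had 25.5, 24.4 and 24.9 FPKM in Control and 29.5, 27.0 and 30.5 FPKM in TMAO (0.21 ± 0.055, limma adjusted p = 0.164). The asparagine synthetase gene Asns, a target of ATF4, had means of 118 and 130 FPKM (0.14) with a limma adjusted p of 0.206. For the argininosuccinate synthase gene Ass1 they were 20.9 and 23.8 FPKM (0.18), with a limma adjusted p of 0.214. Of 20 cytosolic aminoacyl-tRNA synthetase genes, 16 were above 0, with a median of 0.09, where 60.0% of all tested genes were above 0. All TMAO libraries were above Control for 5 of the 20 and below for 1, Farsb. Farsb, Tars and Aars, with the smallest p, had -0.14, 0.14 and 0.14 (limma adjusted p = 0.303, 0.306 and 0.372). Farsb had -0.087 without TMAO 1, and Aars 0.093 without Control 1. The median over all tested genes was 0.02 in the same fit, and between -0.009 and -0.002 under the 3 other scalings. Under the 3 other scalings the medians of the sensing, synthesis and synthetase lists were between 0.038 and 0.073, with 18 or 19, 11 to 13 and 13 to 16 genes above 0.

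**Figure D5:**
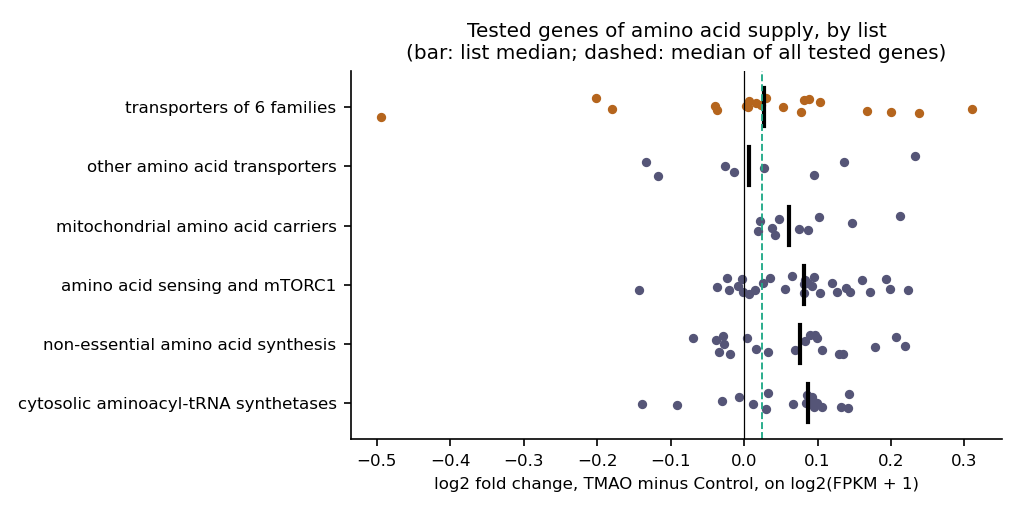
Log2 fold change (x axis, TMAO minus Control on log2(FPKM + 1)) of each tested gene in the transporter families and in 5 lists of amino acid supply; the height of a point within its row carries no value. Black bars are list medians, from 0.01 to 0.09, and the green dashed line is the median of all tested genes, 0.02; the lowest point is Slc7a13.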

How the data were processed

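RNA of cultured mouse aortic smooth muscle cells, 3 Control and 3 TMAO libraries grouped by title, was read from 1 deposited table per library in FPKM, per the file headers (Control 1 spells it PKM). Per the labels' protocols, Trizol and a TruSeq Stranded mRNA kit were used. The submitters' processing notes list Trimmomatic, HISAT2, Cufflinks, HTSeq and mm10, without versions or settings. Limma 3.58.1 (R 4.3.3, trended and robust variance) compared log2(FPKM + 1) over the 11062 genes that reached 1 FPKM in 3 or more libraries, with Benjamini-Hochberg adjustment over all of them. Exon lengths and coordinates came from GENCODE M21 (mm10), which held 25885 identifiers. FPKM times length gave whole reads (within 0.01) in all libraries for 25499 genes, 98.5% of them, and these reads served the voom alternative. No library repeated another (chi-square per degree of freedom at least 2.89). The code was tested on simulated data. Members, gene lists, tests and alternatives were chosen with earlier results of these data known. Full values are given for transporter genes that passed, that averaged 10 FPKM or more, or whose groups did not overlap. Slc38a10 and Slc7a3 were added after their values were seen. From each other list the 3 genes with the smallest p are named. Python 3.11.15, numpy 2.4.6, pandas 2.3.3, scipy 1.17.1 and matplotlib 3.10.9 prepared tables and figures. Some genes were not analysed here.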

Additional observations from a re-analysis of the deposited data

How the results depend on the processing

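The fall of Slc7a13 kept its direction in all 15 alternatives that tested it and passed in 5. Since its groups did not overlap, leaving out 1 library could not turn the direction. With another filter, a fit that is not robust or the replicate block, the estimate stays the same by design. The kept direction in those fits is therefore not separate evidence. The count of transporter genes past the threshold was 1 as reported. It was 0 with no filter, with a filter of 0.1 FPKM, with a mean of at least 5 FPKM (Slc7a13 not tested), with a fit that is not robust, with the replicate block, and without any 1 library (range 0 to 0). Same-numbered libraries had correlations of -0.086, -0.104 and 0.056 in their deviations from the group means, and differently numbered ones -0.061 to 0.141. These values show no pairing by number. With 3 libraries per group they cannot exclude that same-numbered libraries share an origin, which is not given. With the replicate block 12 genes of all tested were higher and 10 lower. The count over all genes was 0 with no filter (0 genes in limma, against 20), 50 with a mean of at least 5 FPKM, 97 with voom and 42 with GC and length trends removed, an alternative chosen after seeing the data. It was 11 without Control 3, 12 without TMAO 1 and 56 without TMAO 2, the range without 1 library being 11 to 56. The median of the transporter genes ran from -0.018 without TMAO 1 to 0.054 without TMAO 3, and was -0.007 with size factors. Over all tested genes the median was 0.012, 0.028 and -0.009 in the same fits. The cause of these moves was not tested. The related lists had 0 calls in every alternative.

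Signs changed for 11 transporter genes near 0, none past the threshold. Median-ratio size factors gave -0.0093 for Slc43a3, -0.0320 for Slc3a2, -0.0092 for Slc36a4, -0.0263 for Slc38a4, -0.0273 for Slc7a1 and -0.0057 for Slc38a1. Quantile normalization gave -0.0060 for Slc36a4, -0.0256 for Slc38a4, -0.0376 for Slc7a1 and -0.0456 for Slc38a1. Removing GC and length trends gave -0.0229 for Slc3a2, -0.0028 for Slc38a4, -0.0381 for Slc7a1 and -0.0310 for Slc38a1. Without 1 library the ranges were -0.026 to 0.027 for Slc3a2, -0.102 to 0.017 for Slc1a4, -0.028 to 0.120 for Slc7a6, -0.021 to 0.134 for Slc7a2, -0.011 to 0.212 for Slc36a1, -0.041 to 0.061 for Slc36a4, -0.029 to 0.057 for Slc38a4, -0.057 to 0.035 for Slc7a1, -0.026 to 0.260 for Slc1a6 and -0.027 to 0.051 for Slc38a1. Of the 35 genes, 8 had under 10 reads over all libraries, and a difference in them was not detectable at this depth.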

Other observations

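The light chain and heavy chain genes, and the leucine and glutamine carrier genes, were also set against each other, ratios that were chosen after the values were seen. The level of Slc7a5 divided by that of Slc3a2, its heavy chain, was 0.526, 0.521 and 0.491 over the Control libraries and 0.432, 0.485 and 0.425 over the TMAO libraries. The groups did not overlap. No test is given, since the ratio was picked on these values. The level of Slc7a5 divided by that of Slc1a5, the glutamine importer whose substrate LAT1 exchanges for leucine, was 0.934, 0.799 and 0.775 in Control and 0.531, 0.726 and 0.602 in TMAO. These groups did not overlap either. Both ratios hold Slc7a5, whose own level already did not overlap between groups, so they are not separate evidence. For single genes, groups did not overlap in 18.7% of all tested genes. Summed over the 6 listed light chain genes, the level was 28.6 ± 0.844 FPKM in Control and 25.4 ± 0.830 FPKM in TMAO (SD, n = 3), most of it Slc7a5. A ratio shows unequal levels of 2 transcripts and says nothing of the amount of protein at the cell surface.

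TMAO 1 was the highest of the 6 libraries for 11 of the 20 tested transporter genes, or 55%, and for 32.3% of all tested genes. The part of this library's composition in the higher values was not tested. Without it, the log2 fold changes of Slc1a6, Slc7a6, Slc7a2, Slc7a1, Slc36a4, Slc38a1 and Slc3a2 were below 0.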
